A study of Homo sapiens with 8 samples.

Results

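C4-2B cells, a bone-metastatic derivative of the androgen-responsive prostate cancer line LNCaP, were profiled after small interfering RNA (siRNA) against DNAPK and after non-targeting siRNA, called control siRNA below, with 1 array for each. These 2 arrays, of 8 in all, were chosen by their sample titles, and every value below is the DNAPK siRNA array minus the non-targeting siRNA array on the log2 scale unless it is called a signal. The other 6 arrays are the same pair of treatments in DU145, PC3 and VCaP, which are also human prostate cancer lines, and they serve here as a measure of how far a difference varies between lines. Cells were harvested 48 hours after transfection, and biotin-labelled cDNA from 400 ng of total RNA was hybridised to Affymetrix whole-transcript arrays. C4-2B and PC3 were kept in RPMI medium, and DU145 and VCaP in DMEM. The labels give neither the siRNA sequences nor whether the siRNA was a pool. Since each treatment of C4-2B has 1 culture and 1 array, nothing within the line could be tested: sizes, ranks and counts are given without error and variation from culture to culture cannot be separated from a response to the siRNA. In bulk RNA, a shift in which cells were present and a shift in RNA per cell also cannot be told apart.

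DNAPK is a kinase complex that joins broken DNA ends by non-homologous end joining: the Ku heterodimer of XRCC6 and XRCC5 binds the ends and recruits the catalytic subunit, which PRKDC encodes. In prostate cancer it is also known to act in transcription, and the study's title names the Wnt pathway as a transcriptional target. Several of the gene groups below belong to the integrated stress response, in which the transcription factor ATF4 drives genes for amino acid uptake, amino acid synthesis, transfer RNA charging and glutathione metabolism, and to the unfolded protein response of the endoplasmic reticulum (ER), whose targets are chaperones and the machinery that degrades misfolded proteins.

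PRKDC had a signal of 6.76 with DNAPK siRNA and 9.29 with control siRNA in C4-2B, a difference of -2.53. This was the lowest value of all 16796 genes compared, and 17.4% of the control signal remained on the linear scale. The same difference was -1.08 in DU145, -1.99 in PC3 and -0.62 in VCaP, so the siRNA target was furthest down in C4-2B. XRCC5, which encodes the Ku80 subunit, had signals of 10.14 with DNAPK siRNA and 10.23 with control siRNA, a difference of -0.09. The cells carried the markers of their line: KLK3, which encodes prostate-specific antigen, had signals of 10.24 with DNAPK siRNA and 10.12 with control siRNA, and TMPRSS2 had 9.46 with DNAPK siRNA and 9.56 with control siRNA. KLK2, STEAP1, STEAP2, HOXB13, SLC45A3 and TRPM8 all lay above 7 on both arrays, while VIM, CD44, CAV1, AXL and ERG, which are high in 1 or more of the other lines, lay below 5 on both. The immune markers PTPRC, CD3E and CD14 and the fibroblast markers DCN and LUM stayed below 3 on both C4-2B arrays, while CD68, a macrophage marker, had 5.04 with DNAPK siRNA and 4.99 with control siRNA, and COL1A1, a collagen chain, had 4.41 with DNAPK siRNA and 4.71 with control siRNA. FOLH1 and PECAM1 were not analysed here.

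C4-2B had fewer large differences than any of the other lines. The counts below keep PRKDC, the siRNA target, wherever it passes. Of 16796 genes, 41 (0.244%) were higher and 57 (0.339%) were lower by more than 1, which is a 2-fold difference. By the same rule VCaP had 216 higher (1.29%) and 406 lower (2.42%), PC3 had 89 (0.53%) and 91 (0.542%), and DU145 had 51 (0.304%) and 137 (0.816%). Past 0.5, 758 genes (4.51%) were higher and 631 (3.76%) were lower in C4-2B. Over all genes the differences had an SD of 0.288 in C4-2B, against 0.334 in DU145, 0.327 in PC3 and 0.462 in VCaP, and the median over all genes was 0.04 in C4-2B. The differences were wider at low signal: their SD was 0.330 for genes with a mean C4-2B signal of 3 to 5 and 0.192 for those at 9 or more. Among the 8253 genes with a mean C4-2B signal of at least 5, only 3 were higher past 1 (0.0364%) and 17 were lower past 1 (0.206%). Of the genes past 1 at any signal, 29 of the 57 lower ones (50.9%) and 20 of the 41 higher ones (48.8%) are protein-coding, and the remainder includes pseudogenes, small RNAs and entries with no class given. For 110 genes measured by 2 probe sets at a signal of at least 5, the paired differences in C4-2B had an SD between them of 0.181. Their Pearson correlation was 0.645. Both probe sets read the same 2 arrays, so this SD leaves out variation between cultures and between arrays.

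**Figure D1:**
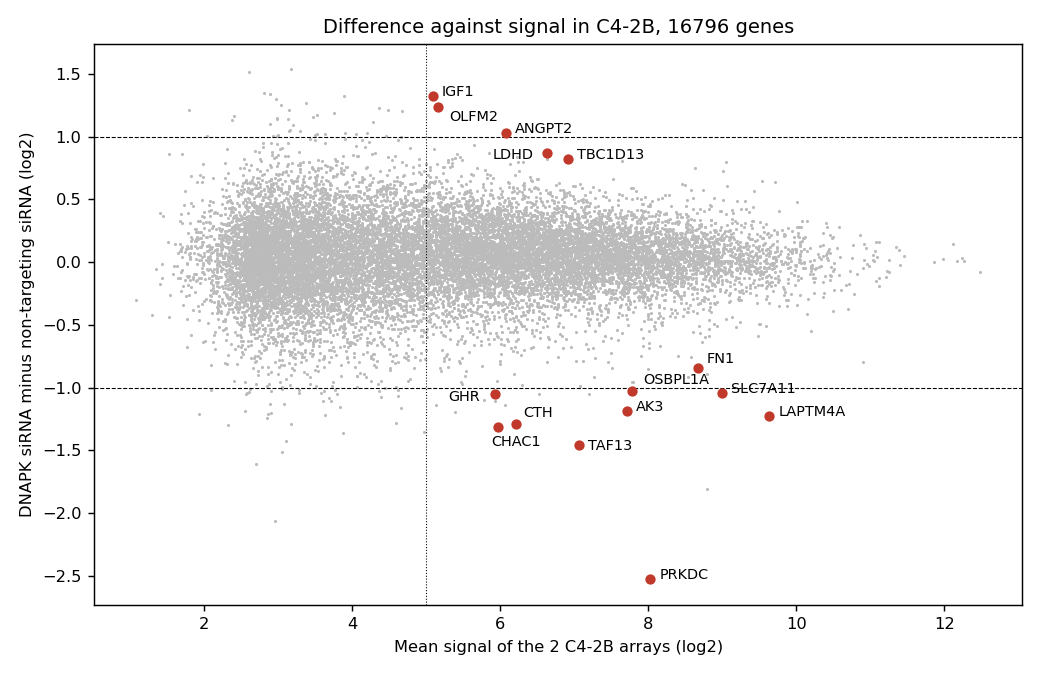
Difference in C4-2B (DNAPK siRNA minus non-targeting siRNA, log2) of 16796 genes against the mean signal of the 2 arrays (log2), with 1 point per gene, dashed lines at 1 and -1, a dotted line at a mean signal of 5 and named genes in red. PRKDC lies alone at the bottom at -2.53, and most points past either line sit at low signal.

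The genes with the lowest values, among those with a mean signal of at least 5, were led by TAF13, CHAC1 and CTH. TAF13, a TBP-associated factor of TFIID, had signals of 6.34 with DNAPK siRNA and 7.79 with control siRNA, a difference of -1.45. CHAC1, which degrades glutathione, had 5.32 with DNAPK siRNA and 6.63 with control siRNA, a difference of -1.31. CTH, which makes cysteine from cystathionine, had 5.56 with DNAPK siRNA and 6.85 with control siRNA, a difference of -1.29. These genes differ in how widely the difference was seen: TAF13 was also at -1.03 in DU145 and -1.35 in PC3, while CHAC1 and CTH lay between -0.15 and -0.03 in those lines and at -1.87 and -1.11 in VCaP. SLC7A11, the cystine transporter, had signals of 8.47 with DNAPK siRNA and 9.51 with control siRNA in C4-2B, a difference of -1.04, and was below 0 in all 4 lines.

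The other genes of the lowest 15 have varied roles. LAPTM4A, a lysosomal membrane protein, had signals of 9.02 with DNAPK siRNA and 10.25 with control siRNA (difference -1.23), and OSTM1, a partner of the lysosomal chloride transporter, had 5.49 with DNAPK siRNA and 6.63 with control siRNA (-1.14). AK3, a mitochondrial adenylate kinase, had 7.12 with DNAPK siRNA and 8.31 with control siRNA (-1.19). Both AK3 and OSTM1 were below 0 in all 4 lines, whereas LAPTM4A was at 0.01 in VCaP. GHR, the growth hormone receptor, had 5.41 with DNAPK siRNA and 6.46 with control siRNA (-1.05), and OSBPL1A, an oxysterol-binding protein, had 7.27 with DNAPK siRNA and 8.30 with control siRNA (-1.03). These receptor and lipid-binding genes had the opposite sign in the other lines, at 0.11 to 0.27 for GHR and 0.06 to 0.76 for OSBPL1A. In DU145 the OSBPL1A value of 0.06 lay near the median of all genes, 0.045. GHR had signals of only 3.22 to 4.63 in the other lines. Genes at a mean signal of 3 to 5 had SDs of 0.375 to 0.504 in those lines, so its sign there carries little information. GPX8, an ER peroxidase, was at -1.10, EVI5, a regulator of Rab GTPases, also at -1.10, and B4GALT1, a galactosyltransferase, at -1.05. The remaining 3 of the lowest 15 were the pseudogenes DSTNP2 (-1.19), EEF1DP3 (-1.14) and PMS2P9 (-1.05), whose probes may share sequence with their parent genes. The long non-coding RNA LOC100287834, outside the naming rule and chosen after its value was seen, was at -1.81.

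Past 1, fewer genes were higher than lower, and IGF1 was the highest at a mean signal of at least 5. IGF1, an insulin-like growth factor, had signals of 5.75 with DNAPK siRNA and 4.43 with control siRNA, a difference of 1.33. OLFM2, an olfactomedin-family protein, had 5.78 with DNAPK siRNA and 4.55 with control siRNA, a difference of 1.24, and was higher still in PC3 at 1.59. ANGPT2, a ligand of the TIE2 receptor of blood vessels, had 6.59 with DNAPK siRNA and 5.56 with control siRNA, a difference of 1.03. Control signals of IGF1 and OLFM2 lay below 5, where the spread of differences was wider. The next 12 lay between 0.81 and 0.93. They included DYRK1B, a kinase linked to cell quiescence, with signals of 6.29 with DNAPK siRNA and 5.41 with control siRNA (0.87), LDHD, the D-lactate dehydrogenase, with 7.07 with DNAPK siRNA and 6.20 with control siRNA (0.87), and the histone H2B gene H2BC11 with 5.85 with DNAPK siRNA and 4.98 with control siRNA (0.86). RABEP2, RAB3A, TBC1D13 and STX19, which act in vesicle traffic, were at 0.93, 0.83, 0.82 and 0.82. DGCR6L (0.90), C19orf25 (0.83), DSEL (0.82), YY1AP1 (0.82) and CDH26 (0.81) completed the highest 15.

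**Figure D2:**
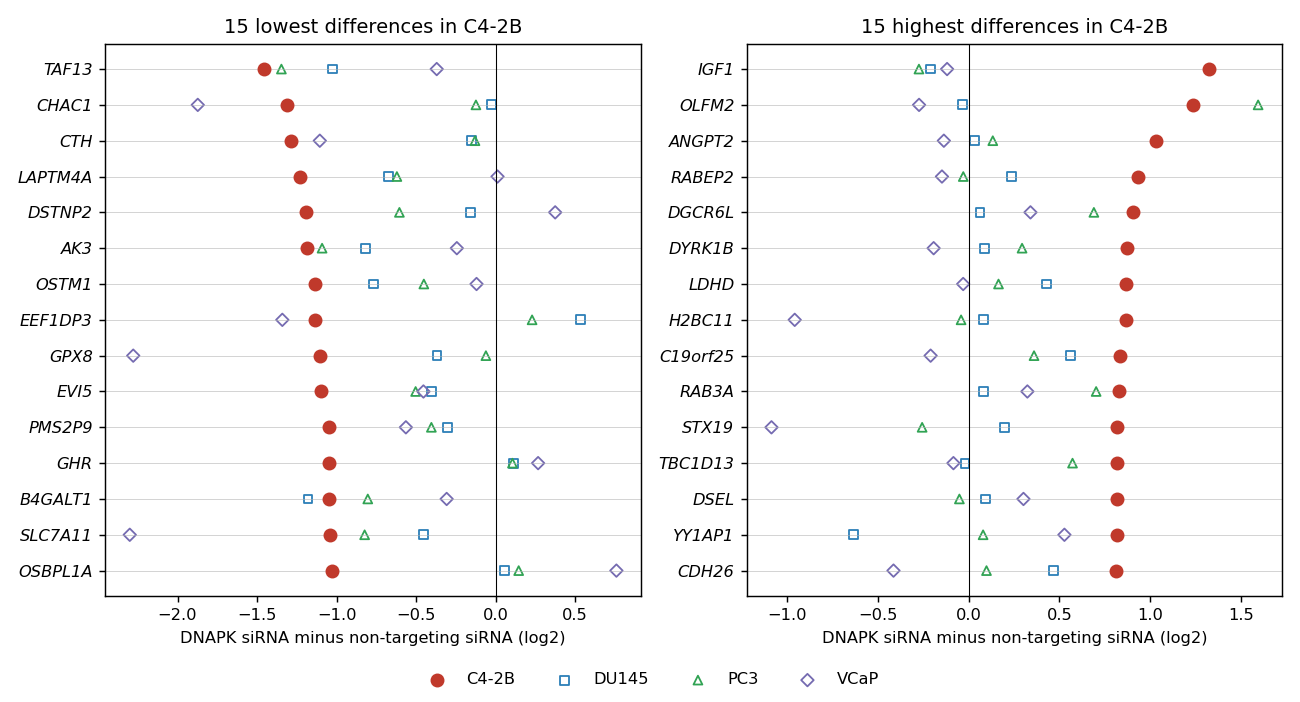
DNAPK siRNA minus non-targeting siRNA (log2) of the 15 lowest genes after PRKDC (left) and the 15 highest (right) in C4-2B with a mean signal of at least 5, with C4-2B as filled circles and the other lines as open symbols. TAF13 and AK3 lie low in PC3 and DU145 too, while for IGF1, ANGPT2, GHR and OSBPL1A the C4-2B point lies apart from the other 3. IGF1 and ANGPT2 had signals near or below the filter level of 2.51 in those lines.

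ATF4 target genes were low as a group in C4-2B. Of 48 measured, 44 were below 0, against 42.9% of all genes, and the median was -0.29, against 0.04 over all genes. Past 0.5, 13 were lower and 1 was higher, against 3.76% and 4.51% of all genes. Past 1, 4 were lower and 1 was higher, against 0.339% and 0.244%. The same list had medians of 0.08 in DU145, -0.03 in PC3 and -1.01 in VCaP, so C4-2B lay between VCaP and the other lines. The 250 bases before the start of the 4 members with the lowest differences that have an entry, from RefSeq on GRCh38.p14, are printed because ATF4 binds a composite element there in many of its targets. ASNS was added after its motif was seen. Capitals mark the motif TGATGNAA or its reverse complement TTNCATCA.
CHAC1: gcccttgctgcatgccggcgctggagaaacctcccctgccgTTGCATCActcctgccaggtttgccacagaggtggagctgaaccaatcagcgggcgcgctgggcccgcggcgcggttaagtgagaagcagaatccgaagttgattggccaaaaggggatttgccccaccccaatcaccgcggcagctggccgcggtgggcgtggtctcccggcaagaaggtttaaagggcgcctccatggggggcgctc
CTH: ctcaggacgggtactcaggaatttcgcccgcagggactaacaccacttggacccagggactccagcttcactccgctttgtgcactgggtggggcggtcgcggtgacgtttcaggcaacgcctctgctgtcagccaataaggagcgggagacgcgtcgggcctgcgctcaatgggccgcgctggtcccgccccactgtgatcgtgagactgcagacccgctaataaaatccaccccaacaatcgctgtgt
FGF21: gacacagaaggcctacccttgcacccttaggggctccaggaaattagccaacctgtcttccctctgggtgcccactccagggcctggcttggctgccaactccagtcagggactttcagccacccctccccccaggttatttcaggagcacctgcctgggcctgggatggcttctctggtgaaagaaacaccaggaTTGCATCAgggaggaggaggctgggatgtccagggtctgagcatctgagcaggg
JDP2: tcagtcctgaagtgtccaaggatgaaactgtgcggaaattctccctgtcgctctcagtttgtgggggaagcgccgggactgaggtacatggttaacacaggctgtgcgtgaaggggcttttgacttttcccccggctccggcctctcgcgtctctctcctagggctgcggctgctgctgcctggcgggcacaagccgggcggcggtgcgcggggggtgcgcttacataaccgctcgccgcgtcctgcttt
ASNS: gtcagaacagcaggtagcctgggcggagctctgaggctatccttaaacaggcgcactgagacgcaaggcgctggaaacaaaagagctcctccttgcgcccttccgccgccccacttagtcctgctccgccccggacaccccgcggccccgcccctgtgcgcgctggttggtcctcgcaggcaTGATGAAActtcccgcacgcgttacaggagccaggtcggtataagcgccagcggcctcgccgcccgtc
These are chr15:40953221-40953470 (CHAC1, plus strand), chr1:70411018-70411267 (CTH, plus), chr19:48755274-48755523 (FGF21, plus), chr14:75427474-75427723 (JDP2, plus) and chr7:97872409-97872658 (ASNS, minus). The motif began 209 bases before the start in CHAC1, 54 in FGF21 and 68 in ASNS, and these letters were not in the windows of CTH and JDP2. It was in 5 of 39 promoters of the list (12.8%), in 3.19% of all 27305 promoters in the reference table and in 1.62% of the 12449 promoters of genes compared here. The other 2 of the 5 were ATF3 and AARS1.

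Within the ATF4 list the low values ran across roles. The counts by role are parts of the 44 of 48 above, and 42.9% of all genes were below 0. All 8 amino acid transporters were below 0, with a median of -0.42 and a range of -1.04 to -0.11. SLC7A11 was the lowest. SLC1A4, a neutral amino acid transporter, had signals of 5.81 with DNAPK siRNA and 6.49 with control siRNA (-0.68), SLC6A9, a glycine transporter, had 5.69 with DNAPK siRNA and 6.34 with control siRNA (-0.65), and SLC7A5, the leucine transporter, had 8.91 with DNAPK siRNA and 9.35 with control siRNA (-0.44). All 11 aminoacyl-tRNA synthetases were also below 0, with a smaller median of -0.25, and GARS1, for glycine, was the lowest at -0.50. Their medians were 0.07 in DU145, 0.06 in PC3 and -0.60 in VCaP. Of 9 enzymes of amino acid synthesis and folate metabolism, 7 were below 0: ASNS, asparagine synthetase, had 6.90 with DNAPK siRNA and 7.67 with control siRNA (-0.77), and PSAT1, of serine synthesis, had 9.92 with DNAPK siRNA and 10.47 with control siRNA (-0.55). The exceptions were the proline enzymes PYCR1 at 0.26 and ALDH18A1 at 0.32. SESN2, a stress-induced inhibitor of mTORC1 signalling, had signals of 5.10 with DNAPK siRNA and 5.97 with control siRNA (-0.87), and TRIB3, a pseudokinase induced by ATF4, had 5.81 with DNAPK siRNA and 6.52 with control siRNA (-0.71).

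ATF4 itself had signals of 8.74 with DNAPK siRNA and 9.02 with control siRNA, a difference of -0.27, and its target DDIT3, which encodes CHOP, had 4.97 with DNAPK siRNA and 5.24 with control siRNA (-0.27). ATF4 is regulated largely at translation, which these arrays do not measure. All 7 transcription factors of the list, also part of the 44, were below 0, against 42.9% of all genes. ATF3 was at -0.33 in C4-2B, against 0.63 in DU145 and 0.70 in PC3. At low signal, the hormone gene FGF21 was at -1.02 and the bZIP gene JDP2 at -0.97. PPP1R15A, the phosphatase subunit that reverses the stress response, had signals of 4.54 with DNAPK siRNA and 3.22 with control siRNA and stood apart at 1.32. GDF15, a stress-secreted factor, had 10.06 with DNAPK siRNA and 10.07 with control siRNA, which differ by less than the SD of 0.192 among genes at that signal.

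**Figure D3:**
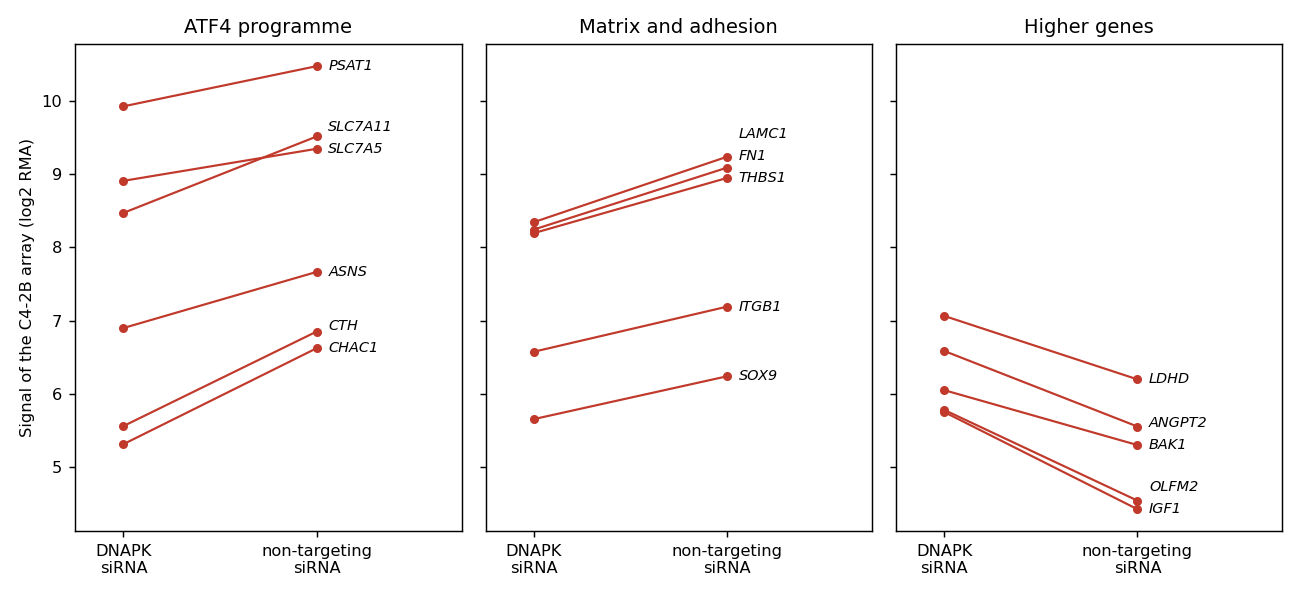
Signals (log2) of genes with DNAPK siRNA (left of each pair) and with non-targeting siRNA (right) in C4-2B, with 1 array per treatment and a line joining the 2 signals of a gene. The panels hold ATF4 genes, matrix and adhesion genes, and higher genes. CHAC1, CTH and SLC7A11 slope up to the non-targeting siRNA array, and IGF1 slopes down.

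Genes of ER protein folding lay low in C4-2B by small amounts, and most of them high in VCaP. Of 38 measured, 35 were below 0 in C4-2B, against 42.9% of all genes, with a median of -0.16. Past 0.5, 4 were lower and 0 higher, against 3.76% and 4.51% of all genes. The medians were 0.10 in DU145, -0.01 in PC3 and 0.72 in VCaP, and C4-2B was the lowest of the 4 lines for 24 of the 38 genes, against 19.3% of all genes. ERO1B, an ER oxidase, had signals of 5.05 with DNAPK siRNA and 5.84 with control siRNA (-0.79). SEL1L, of the ER degradation complex, had 8.47 with DNAPK siRNA and 9.06 with control siRNA (-0.59), DNAJB9, a co-chaperone, had 6.21 with DNAPK siRNA and 6.75 with control siRNA (-0.54), and HERPUD1, of the same degradation pathway, had 8.92 with DNAPK siRNA and 9.44 with control siRNA (-0.52). The major chaperone HSPA5 had 11.15 with DNAPK siRNA and 11.27 with control siRNA (-0.11) in C4-2B, against 1.54 in VCaP, and MANF, a secreted ER factor, was at -0.12 in C4-2B, against 2.14 in VCaP.

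**Figure D4:**
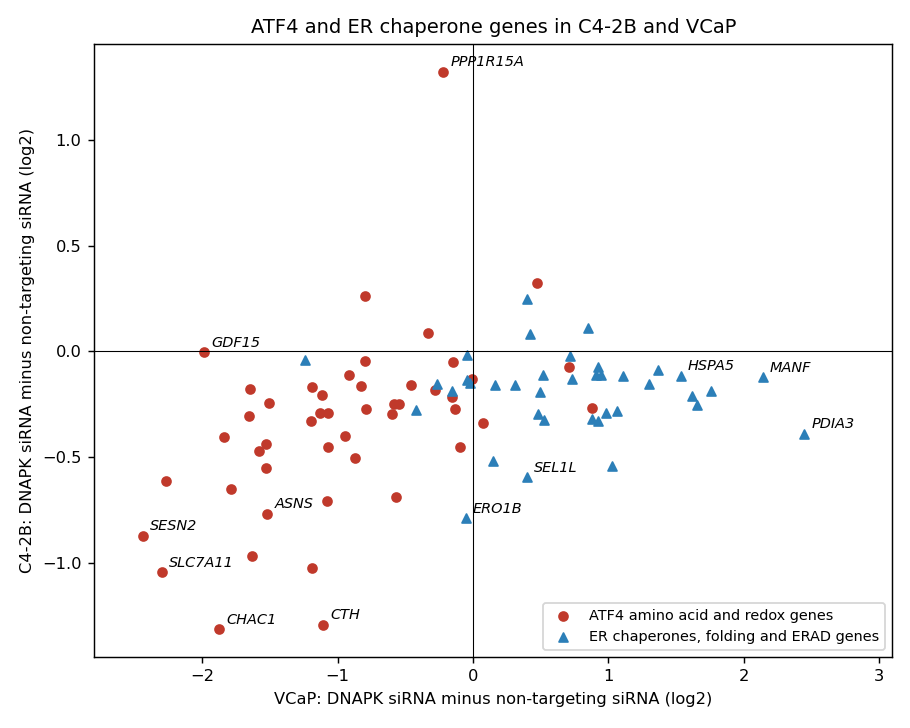
Difference in C4-2B (vertical) against the difference in VCaP (horizontal), both DNAPK siRNA minus non-targeting siRNA (log2), with 1 point per gene of the ATF4 list (circles) and the ER list (triangles). ATF4 genes gather at lower left, with SLC7A11 at -1.04 in C4-2B and -2.30 in VCaP, and most ER genes lie at lower right, with HSPA5 at -0.11 and 1.54.

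Sterol and fatty acid synthesis genes, which SREBP factors drive, were also low. Of 28 measured, 20 were below 0, against 42.9% of all genes, with a median of -0.14, and 2 were lower past 0.5, against 3.76% of all genes. Medians were 0.04 in DU145, 0.05 in PC3 and 0.46 in VCaP, against 0.045, 0.037 and -0.0032 over all genes there. C4-2B was lowest of the 4 lines for 17 of 28, against 19.3% of all genes. STARD4, a cholesterol carrier, had signals of 7.19 with DNAPK siRNA and 7.80 with control siRNA (-0.61), ELOVL6, a fatty acid elongase, had 5.51 with DNAPK siRNA and 6.04 with control siRNA (-0.53), and INSIG1, the sterol sensor's partner, had 10.51 with DNAPK siRNA and 10.89 with control siRNA (-0.37). MVK, mevalonate kinase, lay above 0, at 5.56 with DNAPK siRNA and 5.10 with control siRNA (0.46). STARD4 and INSIG1 were at 1.07 and 1.09 in VCaP.

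Androgen-regulated genes had a median of -0.16, with 28 of 40 below 0, against 42.9% of all genes, and 3 were lower and 0 higher past 0.5, against 3.76% and 4.51%. PLPP1, a lipid phosphatase, had signals of 10.51 with DNAPK siRNA and 11.30 with control siRNA (-0.79), and was below 0 in every line. RAB3B, of vesicle traffic, had 7.70 with DNAPK siRNA and 8.17 with control siRNA (-0.47), HERC3, a ubiquitin ligase, had 8.08 with DNAPK siRNA and 8.51 with control siRNA (-0.43), and the kallikrein KLK2 had 10.31 with DNAPK siRNA and 10.70 with control siRNA (-0.39). KLK3 was at 0.11. The list's medians were -0.03 in DU145, -0.11 in PC3 and -0.10 in VCaP. Of 16 lineage transcription factors, 9 were below 0, against 42.9% of all genes. SOX9 had 5.66 with DNAPK siRNA and 6.24 with control siRNA (-0.58), GRHL2 was at -0.32, ONECUT2 at 0.32 and GATA2 at 0.30.

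Matrix and adhesion genes were low at their high-signal members. LAMC1, a laminin chain, had signals of 8.34 with DNAPK siRNA and 9.24 with control siRNA (-0.89), FN1, fibronectin, had 8.24 with DNAPK siRNA and 9.09 with control siRNA (-0.84), THBS1, thrombospondin, had 8.20 with DNAPK siRNA and 8.95 with control siRNA (-0.75), and ITGB1, an integrin chain, had 6.58 with DNAPK siRNA and 7.19 with control siRNA (-0.61). Of the 40 measured in the mesenchymal list, 24 were below 0, against 42.9% of all genes, with a median of -0.08. Past 0.5, 6 were lower and 1 was higher, against 3.76% and 4.51% of all genes. FN1 and LAMC1 were below 0 in all 4 lines. In VCaP, FN1 had low signals of 3.31 with DNAPK siRNA and 3.93 with control siRNA (-0.62). Genes at a mean signal of 3 to 5 had an SD of 0.504 in VCaP. Of the markers of fibroblasts and endothelium, 8 of 17 passed the filter. They had a median difference of -0.14 with 6 of 8 below 0, against 42.9% of all genes. Their median signals were 3.38 with DNAPK siRNA and 3.42 with control siRNA. DCN and LUM lay near the floor of the array with both treatments, and their part in the matrix result was not tested. Epithelial junction genes had a median near 0, at 0.00409 with 14 of 27 above 0, against 57.1% of all genes. The sign of this median turned under 2 other scalings. PKP3, a desmosomal plakophilin, was at 0.60, ESRP2, an epithelial splicing factor, at 0.45, CRB3, a polarity protein, at 0.42 and the claudin CLDN12 at -0.41, and at lower signal TJP3, of tight junctions, was at -0.69.

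The Wnt pathway, which the study's title names, had small differences in both directions. Its beta-catenin components had a median above that of all genes (0.04), and its target genes had a median below it. Of 41 beta-catenin pathway components, 30 were above 0, against 57.1% of all genes, with a median of 0.13, and C4-2B was highest of the 4 lines for 13, against 21.9% of all genes. BCL9, a beta-catenin cofactor, had signals of 8.54 with DNAPK siRNA and 8.01 with control siRNA (0.53), its partner PYGO2 had 6.67 with DNAPK siRNA and 6.21 with control siRNA (0.46), the transcription factor TCF7L2 had 5.77 with DNAPK siRNA and 5.41 with control siRNA (0.37), and the receptor-degrading ligase ZNRF3 had 5.82 with DNAPK siRNA and 5.48 with control siRNA (0.34). CTNNB1, beta-catenin itself, had 7.40 with DNAPK siRNA and 7.50 with control siRNA (-0.10). Among 37 ligands and receptors the median was 0.05. The receptor FZD4 had the lowest value at a signal of at least 5, at 5.61 with DNAPK siRNA and 6.39 with control siRNA (-0.79). FZD4 was below 0 in all 4 lines. In DU145 it had low signals of 3.65 with DNAPK siRNA and 4.12 with control siRNA (-0.47). Genes at a mean signal of 3 to 5 had an SD of 0.375 in DU145. Target genes had a median of -0.07 with 19 of 42 above 0, against 57.1% of all genes. Past 0.5, 4 targets were lower and 2 higher, and 1 beta-catenin component was lower and 2 higher. The shares of all genes were 3.76% and 4.51%. The target AXIN2 had signals of 4.50 with DNAPK siRNA and 4.72 with control siRNA (-0.21), SOX9 was at -0.58 and JUN, at 6.15 with DNAPK siRNA and 5.62 with control siRNA, was at 0.53. Non-canonical components (median -0.03) and antagonists (0.05) lay close to the median of all genes. The 3 measured genes that have been named with DNAPK in prostate cancer cell migration were all below 0 in C4-2B, against 42.9% of all genes. PREX1 had 2.71 with DNAPK siRNA and 3.0 with control siRNA (-0.29). ITGB4 had 2.61 with DNAPK siRNA and 2.69 with control siRNA (-0.08). Both PREX1 and ITGB4 lay near the filter level of 2.51, so their signs carry little information. ROCK2, the only member with a signal of at least 5, had 6.89 with DNAPK siRNA and 7.06 with control siRNA (-0.17). Genes at a mean C4-2B signal of 5 to 7 had an SD of 0.259. PREX1 was at 0.35, 0.80 and 1.83 in DU145, PC3 and VCaP. VAV3 was below the filter.

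**Figure D5:**
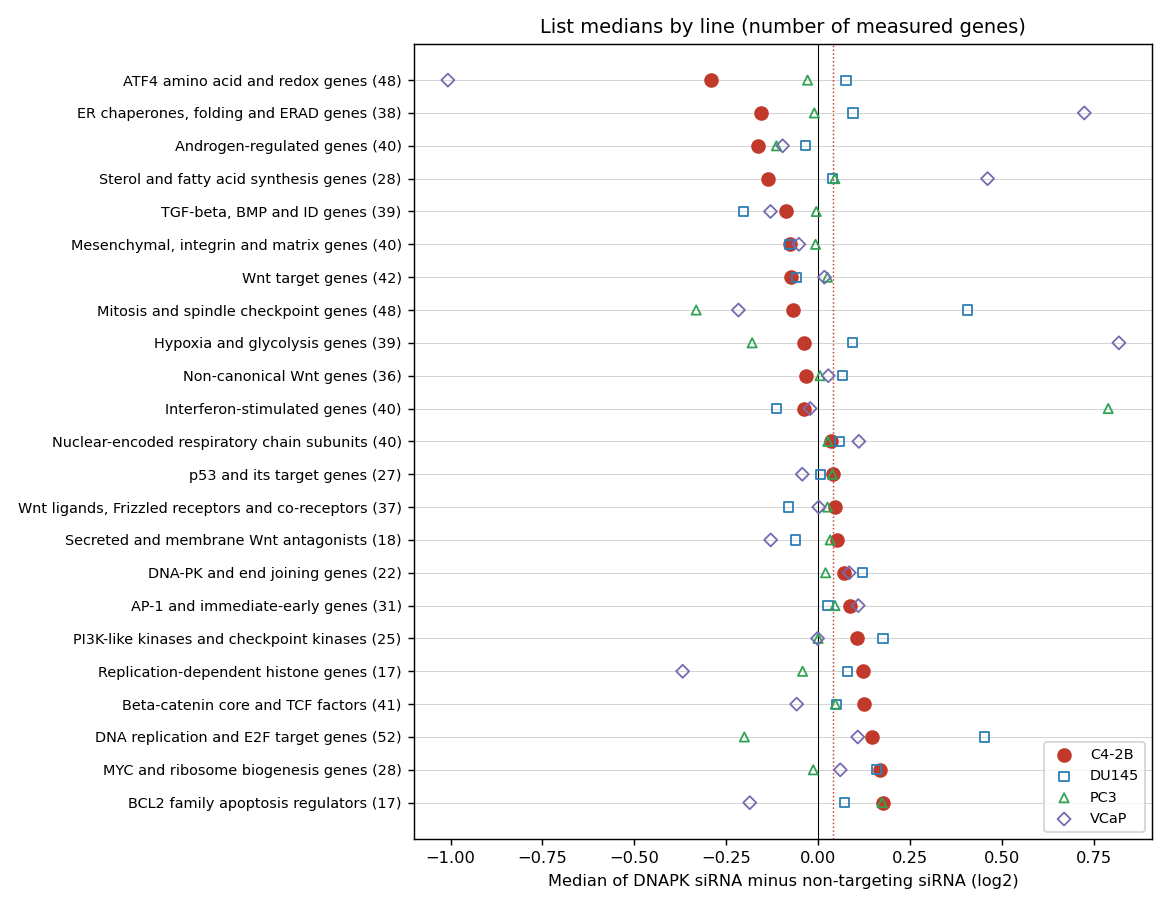
Median difference of the gene lists drawn (log2, DNAPK siRNA minus non-targeting siRNA), with C4-2B as filled circles, DU145, PC3 and VCaP as open symbols and a dotted line at the C4-2B median of all genes, 0.04. ATF4 genes (-0.29), ER genes (-0.16), androgen-regulated genes (-0.16) and sterol genes (-0.14) are the lowest C4-2B medians among lists of over 10 genes, and the highest drawn are BCL2-family (0.18, or 0.089 with no filter) and ribosome biogenesis (0.17) genes.

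The genes of DNA repair had small differences, as most genes did. None of 22 end-joining genes apart from PRKDC, of 25 kinase-signalling genes and of 29 homologous recombination and Fanconi genes passed 0.5. Of all genes, 4.51% were higher and 3.76% lower past 0.5. At a mean C4-2B signal of at least 5 these shares were 2.64% and 2.21%, so few members would pass. The medians of these lists were 0.07 for end joining, 0.11 for kinase signalling (0.064 under cyclic loess) and 0.05 for recombination. POLQ, the polymerase of alternative end joining, was the furthest of the end-joining list, with signals of 7.26 with DNAPK siRNA and 7.65 with control siRNA (-0.40). TTI1, which stabilises the DNAPK-related kinases, had 8.46 with DNAPK siRNA and 8.12 with control siRNA (0.34), and the ubiquitin ligase RNF168 was at 0.31. TOP3A, a topoisomerase, had 6.73 with DNAPK siRNA and 6.24 with control siRNA (0.48), and RAD54L was at 0.40.

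DNA replication genes lay higher, with 41 of 52 above 0, against 57.1% of all genes, and a median of 0.15, against 0.45 in DU145, -0.20 in PC3 and 0.11 in VCaP. E2F1, a transcription factor of S-phase entry, had signals of 6.55 with DNAPK siRNA and 6.04 with control siRNA (0.50), and MCM2, a helicase subunit, had 7.41 with DNAPK siRNA and 6.96 with control siRNA (0.45). Mitotic genes were not high as a group: their median was -0.07, and BUB3, a spindle checkpoint protein, had 8.02 with DNAPK siRNA and 8.77 with control siRNA (-0.75) and KIF14, a mitotic kinesin, had 6.91 with DNAPK siRNA and 7.60 with control siRNA (-0.69). RBL2, the retinoblastoma-family protein p130, had 7.31 with DNAPK siRNA and 8.27 with control siRNA (-0.96), with -0.45 to -0.39 in the other lines, and CDC25A, a cell cycle phosphatase, was at 0.42. Of 17 histone genes, 14 were above 0 (median 0.12), against 57.1% of all genes. At a mean signal of at least 5, H2BC11 was at 0.86 and H2BC14 at 0.49, and at lower signal H2BC9 was at 0.72 and H2BC3 at -1.04. The list's median was 0.079 under cyclic loess scaling. Since histone genes lie in closely related copies, a probe set may not tell them apart.

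BAK1 and BAX, which open pores in the mitochondrial membrane during apoptosis, were higher. BAK1 had signals of 6.05 with DNAPK siRNA and 5.30 with control siRNA (0.75), and was above 0 in every line. BAX had 5.45 with DNAPK siRNA and 4.88 with control siRNA (0.56), and was at 0.62 in DU145, 0.40 in PC3 and -0.49 in VCaP. Of 17 BCL2-family genes 12 were above 0, against 57.1% of all genes, with a median of 0.18, which was 0.089 with no filter on signal. The 12 also included BCL2L12 (0.38) and MCL1 (0.27). The 5 below 0 were BNIP3L (-0.30), BMF (-0.29), BIK (-0.17), BBC3 (-0.12) and PMAIP1 (-0.06). Whether apoptosis changed was not tested. TP53INP1, a p53 target, had 7.30 with DNAPK siRNA and 8.25 with control siRNA (-0.95), and the p53 list as a whole had a median of 0.04. Ribosome biogenesis genes had a median of 0.17 with 23 of 28 above 0, against 57.1% of all genes, and TCOF1, which acts in ribosomal RNA transcription, had 6.68 with DNAPK siRNA and 6.09 with control siRNA (0.58). RRP9 (0.41), NIP7 (0.37) and POLR1C (0.35), also of ribosome production, followed.

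The remaining lists are given by their medians. Interferon genes had a median of -0.04 (PARP9 at -0.66), while PC3 had 0.79. NF-kB targets were at -0.02, with 2 of 24 higher past 1 and 0 lower, against 0.244% and 0.339% of all genes. These were CXCL1 (1.34) and CXCL8 (1.21), whose control signals of 2.22 and 1.19 lay below the filter level of 2.51. AP-1 and immediate-early genes were at 0.09. Hypoxia genes were at -0.04, with PDK1, the pyruvate dehydrogenase kinase, at 7.69 with DNAPK siRNA and 8.33 with control siRNA (-0.64), against 0.82 in VCaP for the list. TGF-beta and BMP genes were at -0.09, with 28 of 39 below 0, against 42.9% of all genes. They held BMPR1B at -0.56, SMAD5 at 0.50, ID1 at -0.42 and TGFBR1 at -0.40. Respiratory chain, antioxidant and RB/cyclin lists had medians of 0.03, 0.03 and 0.04, and these turned below 0 under cyclic loess scaling. In the neuroendocrine list (-0.01), SYT4, a synaptotagmin, had 9.72 with DNAPK siRNA and 9.15 with control siRNA (0.57) and PEG10 was at -0.59.

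Of the 98 genes past 1 in either direction, 86 (87.8%, or 0.512% of all genes) lay beyond the range of the other 3 lines, which a rule on size makes likely. By the same rule, 611 of 622 (98.2%, or 3.64% of all genes) did in VCaP, 167 of 180 (92.8%, 0.994%) in PC3 and 177 of 188 (94.1%, 1.05%) in DU145. The genes farthest above the highest of the other lines were IGF1 by 1.44, ANGPT2 by 0.90, SIK2 by 0.81, H2BC11, TNFRSF21 and KAT14 by 0.78, POTEE by 0.75 and DDX11 by 0.74. IGF1 (1.92 to 2.32) and ANGPT2 (2.31 to 2.66) had signals near or below the filter level of 2.51 on every array of the other lines and passed it through C4-2B, so a difference there could hardly have been seen. SIK2, a salt-inducible kinase, had signals of 7.55 with DNAPK siRNA and 6.95 with control siRNA (0.60), and TNFRSF21, a death receptor, had 6.54 with DNAPK siRNA and 5.98 with control siRNA (0.57). The genes farthest below the lowest of the other lines were GHR by 1.15, OSBPL1A by 1.09, KLHL35 by 0.79, MICAL1, AZGP1P1 and ZNF680 by 0.76, ERO1B by 0.73 and CYP2J2 by 0.72. In the other lines GHR had signals of 3.22 to 4.63. MICAL1, an actin-oxidising enzyme, had 6.55 with DNAPK siRNA and 7.13 with control siRNA (-0.58). For ZNF680, at -0.08 in C4-2B, and for CYP2J2, at -0.30, the C4-2B value was small and the other lines lay at 0.42 to 0.72.

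Genes that had the same sign in all 4 lines were also present. Of the 57 genes lower past 1 in C4-2B, 18 (31.6%) were below 0 in every line, against 13.7% of all genes below 0 in C4-2B. Of the 17 with a mean signal of at least 5, 11 (64.7%) were, against 14.1% of genes below 0 at that signal. PRKDC, which the siRNA targets, is counted in each of these sets. Of the 41 genes higher past 1, 6 were above 0 in every line (14.6%), against 20.2% of all genes above 0 in C4-2B. With PRKDC left out, the 6 lower genes whose smallest difference in any line was largest were SLC7A11, ENPP4 at -0.97 in C4-2B, FN1 at -0.84, UBE2E3 at -0.61, SNX5 at -0.99 and FZD4 at -0.79. FN1 in VCaP and FZD4 in DU145 had signals below 5, where the spread of differences was wider. ENPP4, a phosphodiesterase, had signals of 5.80 with DNAPK siRNA and 6.78 with control siRNA, and SNX5, a sorting nexin of endosomes, had 6.58 with DNAPK siRNA and 7.57 with control siRNA. The 6 highest by the same measure were ATOSB (0.63), SLC25A10 (0.58), MEX3A (0.51), POLR1G (0.43), PGAP6 (0.43) and SELENOW (0.41), of which SLC25A10, a mitochondrial dicarboxylate carrier, had signals of 8.87 with DNAPK siRNA and 8.29 with control siRNA. Over the 8253 genes with a mean C4-2B signal of at least 5, the Pearson correlation of the differences with those of C4-2B was 0.310 in PC3, 0.185 in DU145 and 0.116 in VCaP, as a description only, since the arrays were normalised together.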

How the data were processed

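Values are those deposited: log2 signals per probe set, which the authors made with oligo and RMA per the submitters' processing notes (versions not given; robust multi-array average corrects background, makes the distributions of the 8 arrays alike and summarises probes). A difference is therefore relative to the bulk of genes; array medians were 2.94 to 2.99. Of 53617 probe sets, 23871 had exactly 1 gene symbol in the platform annotation, and 1842 had several and were left out. Symbols were updated by Entrez identifier through the RefSeq table of GRCh38.p14 for 22569. The highest-mean probe set stood for each of 22395 genes, and genes at or below the 25th percentile of mean signal (2.51) were set aside, leaving 16796. The sources used here do not give the array's genome build. Differences were computed with Python 3.11.15 and pandas 2.3.3, and an alternative scaling with limma 3.58.1 under R 4.3.3; the calculation was tested on simulated data. The number of arrays limits the precision.

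Groups follow the sample labels. With 1 array per treatment no test was run. The members and the 38 gene lists were chosen with earlier results of these data known. Named genes are PRKDC, the 15 highest and 15 lowest with a mean C4-2B signal of at least 5 (small RNAs, LOC and LINC entries, antisense and immunoglobulin segments excluded), the 8 farthest beyond the other lines on each side, the 6 of each sign shared by 4 lines, the 4 furthest members of described lists and fixed markers; others named were chosen after their values were seen. A list and some markers are not reported here. Promoter sequences are from RefSeq, GRCh38.p14.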

Additional observations from a re-analysis of the deposited data

Results flagged for a closer look

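Among lists whose C4-2B median lay over 0.1 from that of all genes and named genes past 1, 3 lists and 3 genes had one sign in C4-2B and the other in DU145, PC3 and VCaP. Smaller values of opposite sign were not counted. Whether the lines differ was not tested. The sterol and fatty acid synthesis list had a median of -0.14 in C4-2B, against 0.04, 0.05 and 0.46 in DU145, PC3 and VCaP. Over all genes the medians in those lines were 0.045, 0.037 and -0.0032. In DU145 and PC3 the sterol list therefore lay with the bulk of genes, and its sign there carries little information. The migration list had a median of -0.17, against 0.14, 0.10 and 0.29. Of its 3 measured genes, only PREX1 had the opposite sign in each of the other lines. ITGB4 was at -0.33 in DU145 and -0.32 in PC3, and ROCK2 was at -0.62 in VCaP. PREX1 and ITGB4 had C4-2B signals of 2.61 to 3.0, near the filter level of 2.51. The fibroblast and endothelial markers had a median of -0.14, against 0.00, 0.13 and 0.15. This rests on 8 genes of low signal. The C4-2B median was -0.000806 when filtering on the 2 C4-2B arrays and -0.058 with no filter. GHR was at -1.05 in C4-2B, OSBPL1A at -1.03 and IGF1 at 1.33, each with the opposite sign in every other line. OSBPL1A was at 0.06 in DU145 and 0.14 in PC3, against SDs of 0.268 and 0.256 at a signal of 7 to 9. In VCaP it was at 0.76, against an SD of 0.396. GHR was at 0.11 to 0.27 in the other lines, at signals of 3.22 to 4.63, where the SD of differences was 0.375 to 0.504. IGF1 had signals of 1.92 to 2.32 on the 6 arrays of the other lines, below the filter level of 2.51, so its sign there carries little information.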

How the results depend on the processing

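PRKDC was at -2.57 to -2.53 under the scalings and filters tried. Of 260 summary values under the alternatives, 249 moved by less than the spread between the other 3 lines or stayed within 1.5 times the count and 11 moved by more. Of 308 values of named genes 306 stayed and 2 moved. A filter cannot change the difference of a single gene, so those values were bound to stay. IGF1, ANGPT2, KLHL35 and POTEE dropped out under the filter at the 50th percentile. The spread was also wide for some values, with an SD of 1.04 for CHAC1 and 0.60 for the ATF4 list, so staying within it says little. A filter at the 50th percentile left 14 genes higher past 1 and 29 lower, and 36 past 1 beyond the other lines, from fewer genes compared. It also gave list medians of 0.10 for Notch genes (-0.00892 before), -0.14 for mesenchymal genes (-0.08) and 0.19 for neuroendocrine markers (-0.01). Filtering on the 2 C4-2B arrays gave -0.12 for mesenchymal genes and -0.000806 for fibroblast and endothelial markers, and no filter gave -0.058 for those markers. Cyclic loess gave 0.00829 for the median of all genes and -0.074 for non-canonical Wnt genes. Leaving out DU145, PC3 or VCaP in turn gave 88 to 94 genes past 1 beyond the others. Over all alternatives, 12 list medians in 9 lists changed sign, each lying within 0.1 of the median of all genes as first computed: the lists are epithelial junction, RB/cyclin, respiratory chain, antioxidant, heat shock, NF-kB, interferon, Notch and neuroendocrine genes. No test within C4-2B was possible because it has 1 array per treatment, and no paired analysis over the lines was run.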
